A study of Homo sapiens with 4 samples.

Results

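The urokinase plasminogen activator system was described after knockdown of ACTL6A in SNU638, a cell line grown from a human gastric cancer. It was taken as all probe sets, each a group of short probes against 1 transcript region, that the probe table pairs with exactly 1 of 9 gene symbols: the activators PLAU and PLAT, the receptor PLAUR, the serpins SERPINE2, SERPINB2, SERPINB5 and SERPINB6, and the proteases MMP9 and ST14. That rule found 7 of the 9 genes, out of 19775 genes named on the array, through 14 of its 54675 probe sets. SERPINB2 and SERPINB6 had no probe set under their symbol in that table, and their expression is not analysed here.

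The study profiled 2 arrays of cells given an shRNA against ACTL6A (sh-ACTL6A) and 2 arrays of cells given a scrambled shRNA (scramble), and no array was treated otherwise. ACTL6A is an actin-related subunit of chromatin remodelling complexes. The hairpins were carried by the pLKO.1 lentiviral vector and infected cells were kept in puromycin, so both groups are selected pools of 1 cell line. From the labels it is unknown if 1 hairpin or several were used against ACTL6A, and if arrays of 1 group are separate cultures. Errors and p-values thus cover the spread of these 4 arrays alone, and that spread may be technical.

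Urokinase, encoded by PLAU, and tissue plasminogen activator, encoded by PLAT, are serine proteases that cut plasminogen into plasmin, which degrades fibrin and matrix proteins and can activate other proteases. The receptor encoded by PLAUR holds urokinase at the cell surface, and serpins trap the activators by offering them a bait loop. In epithelial tumours the system is studied for its part in invasion and in matrix turnover around migrating cells.

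The 9 genes were selected on known biology and on the sh-ACTL6A minus scramble differences of these same arrays, which were already known. All differences of the 14 probe sets are therefore a description, given with their standard error (SE). Counts of calls among these genes come from the fits across the whole table, stand beside the share of all genes or probe sets called, and are no independent evidence about the genes. Values are log2 signals as deposited, and fits by limma ran across the whole table. Genes were tested where the brightest probe set had a mean log2 signal of at least 5.63, the 50th percentile of all probe sets that are not controls, which left 12286 genes. Of the 14 probe sets, 10 reached that signal and 4 did not. PLAU, PLAT, PLAUR, SERPINB5, MMP9 and ST14 were tested as genes, and SERPINE2 was not.

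The knockdown was visible in its target. ACTL6A read 10.16 and 10.32 on the sh-ACTL6A arrays, against 11.92 and 11.82 on the scramble arrays, and fell by 1.63 on the log2 scale (SE 0.14, limma adjusted p = 0.0408). It was the 1 gene of 12286 past an adjusted p of 0.05, or 0.00814% of those tested, and 0 genes passed in the fits without scramble replicate 1 or without scramble replicate 2. Median log2 signal lay between 5.70 and 5.83 on the 4 arrays, and arrays correlated across genes with r from 0.980 to 0.987. Of the epithelial markers, 7 of 8 were above the signal threshold, and their summed linear signal was 40239 and 47038 on the sh-ACTL6A arrays, against 46945 and 55003 on the scramble arrays. CLDN4 was the epithelial marker below the threshold. The brightest epithelial marker, KRT18, differed by -0.34 ± 0.08 (SE) without overlap of the groups, beside 34.6% of all genes, and weighs most in the sum. The groups overlapped for every other epithelial marker. Of the fibroblast, endothelial and leukocyte markers, 2 of 6, 1 of 4 and 0 of 5 with a named probe set reached the threshold, and their sums overlapped between the groups. Of the control probe sets for RNA quality, those of ACTB differed between the ends of the transcript (3′ minus 5′, log2) by 1.21 and 0.78 on the sh-ACTL6A arrays and by 1.63 and 0.78 on the scramble arrays, so the difference was wider in replicate 1 of both groups. For GAPDH the same difference was smaller, at 0.22 and 0.07 on the sh-ACTL6A arrays and 0.29 and 0.10 on the scramble arrays. It was also wider in replicate 1 of both groups. Bulk RNA cannot tell fewer cells with a transcript from less of that transcript per cell.

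The sequence before PLAU is shown because PLAU had the largest difference among the bright probe sets of the system, and was taken from RefSeq. Promoter windows were found for 6 of the 9 genes, 11 windows in all, each of 250 bases before to 50 bases after a start. PLAU, on chromosome 10, had windows at each of 2 starts. In the downstream window, chr10:73910882-73911131 (GRCh38.p14, plus strand), the capitals mark the GC box letters GGGCGG, to which SP-family factors can bind, and no other searched motif was found there.

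PLAU upstream: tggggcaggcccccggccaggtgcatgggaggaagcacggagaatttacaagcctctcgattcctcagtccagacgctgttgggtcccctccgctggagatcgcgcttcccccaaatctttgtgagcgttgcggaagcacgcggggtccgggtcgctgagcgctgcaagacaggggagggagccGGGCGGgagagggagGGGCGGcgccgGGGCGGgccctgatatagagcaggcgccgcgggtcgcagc

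Counted from the start, the 3 GC boxes began at positions -66, -51 and -40, and 45% of all 35116 promoter windows held at least 1 on either strand. The other motifs searched, on both strands, were TGANTCA for AP-1 (in 7.71% of windows), TGACNNNGC for the antioxidant response element through which NRF2 acts (13.3%), TATAAA (11.5%) and GGGNNTTCC for NF-kB (6.58%). Short stretches around matches are set side by side for the upstream PLAU window, PLAUR and SERPINE2, because the study dealt with NRF2 and because AP-1 is a known regulator of PLAU and PLAUR. The capitals are the matched letters, written along the strand of the gene (GRCh38.p14, plus strand for PLAU, minus strand for PLAUR and SERPINE2).

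PLAU, chr10:73910434-73910458: cttatcaaGCCCTGTCAaaaacgga
PLAUR, chr19:43670341-43670363: caactccaTGAGTCAgggccgag
SERPINE2, chr2:224031633-224031657: tggctgatGCTAAGTCAcatggtca
SERPINE2, chr2:224031556-224031580: tggctgatGCTAGGTCAcgtggtca

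The PLAU and SERPINE2 stretches hold the response element core on the opposite strand, with first bases at -168 for PLAU and at -171 and -94 for SERPINE2. The PLAUR stretch holds the AP-1 letters at -186. Both AP-1 and GC box letters were also found before SERPINB5, at -146 and at -77 and -72. AP-1 letters lay before SERPINB2 too, at -102. GC box letters lay before SERPINB6, and before SERPINE2 at -50 in one window and at -230 and -183 in the other. TATAAA began at -30 for SERPINB2 and at -1 for SERPINB6. No AP-1 letters were found in either PLAU window, and sequence outside the windows was not searched, so sites further off would be missed. A match of letters is a description of the sequence and was not set against binding data.

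PLAU had the lowest difference among the 10 bright probe sets of the system. Its brighter probe set read 9.71 and 10.34 on the sh-ACTL6A arrays, against 11.06 and 11.19 on the scramble arrays. Both sh-ACTL6A arrays were below both scramble arrays, with 0.72 between the nearest pair. Mean log2 signal was 10.03 ± 0.44 in sh-ACTL6A and 11.13 ± 0.09 in scramble (SD over 2 arrays each), so the sh-ACTL6A arrays were the more scattered ones. The difference was -1.10 ± 0.21 (SE, 95% confidence interval -1.60 to -0.60), a fold of 0.466. Set against the scramble mean, sh-ACTL6A replicate 1 stood at -1.41 and replicate 2 at -0.79.

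The dimmer PLAU probe set had the same sign with less separation. It read 7.62 and 8.99 on the sh-ACTL6A arrays, against 8.70 and 9.56 on the scramble arrays. The groups overlapped, since sh-ACTL6A replicate 2 lay above scramble replicate 1. Its difference was -0.82 ± 0.47 (SE, 95% confidence interval -1.95 to 0.31). In both groups replicate 1, the array with the wider ACTB difference between the ends, gave the lower reading, and the part of RNA quality in this was not tested.

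In the fit over genes, 66 of 12286 genes, or 0.537%, differed by -1 or lower, and PLAU had the 50th lowest difference. It did not pass the adjusted threshold, and 0 of the 6 tested genes of the system did by limma, beside 0.00814% of all genes. At an unadjusted p under 0.05, limma marked 1 of the 6, which was PLAU, beside 5.5% of all genes, and the methods' t-test, unpaired, marked 0 of the 6, beside 672 of 12286 genes. In a fit of every probe set, 0 of the 14 passed, beside 0% of 54613 probe sets, and 1 of 14 had an unadjusted p under 0.05, beside 5.01% of all. PLAU was among 401 of 12286 genes that passed in the fit without sh-ACTL6A replicate 1 (difference -0.79) and among 335 that passed without sh-ACTL6A replicate 2 (difference -1.41). These fits hold 1 sh-ACTL6A array and assume that it varies like the scramble pair.

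**Figure D1:**
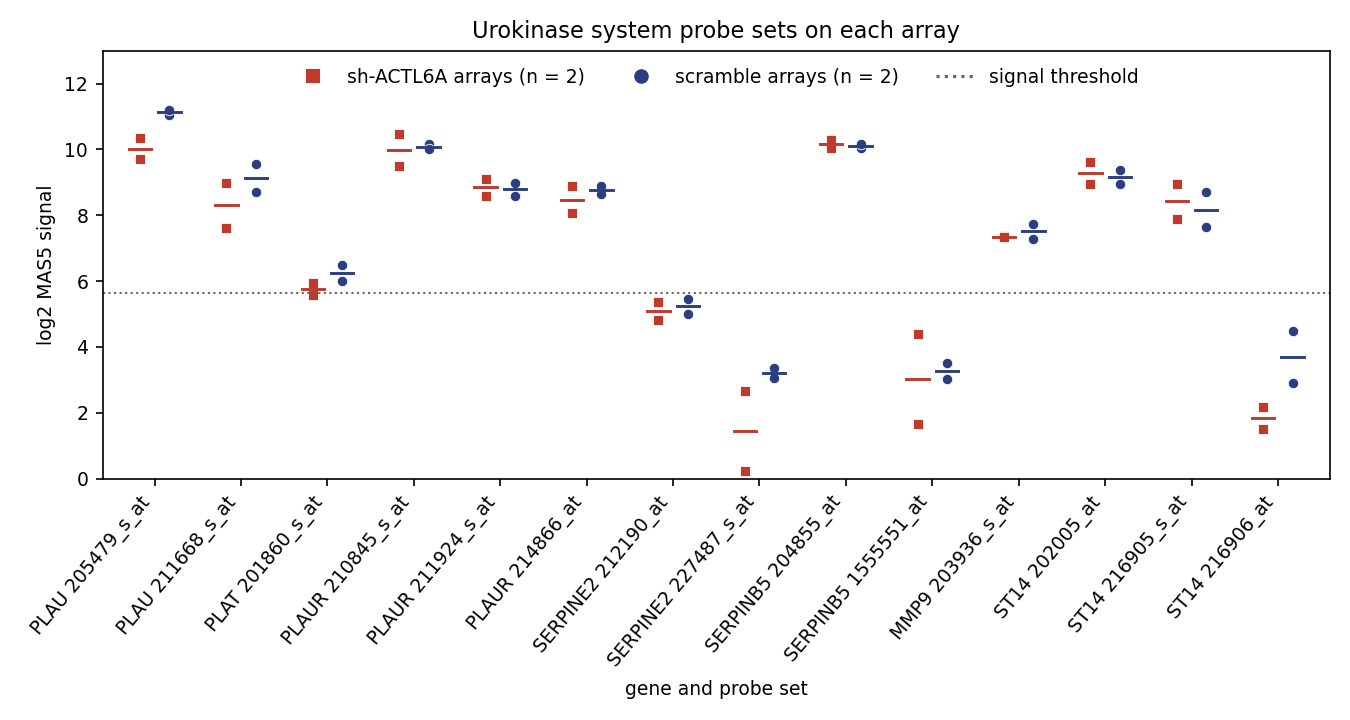
Log2 MAS5 signal (vertical axis) of each of the 14 probe sets (horizontal axis), with squares for the 2 sh-ACTL6A arrays, circles for the 2 scramble arrays, horizontal strokes for group means and the signal threshold of 5.63 dotted. The sh-ACTL6A squares lie below the scramble circles for the brighter PLAU probe set, at 9.71 and 10.34, while most other bright probe sets overlap.

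PLAT, the other activator, was dim. Its only probe set read 5.95 and 5.58 on the sh-ACTL6A arrays, against 6.50 and 6.01 on the scramble arrays, so that the groups were apart by 0.06. The lower sh-ACTL6A reading lay under the signal threshold, although the mean over the 4 arrays, 6.01, did not. The difference was -0.49 ± 0.39 (SE, 95% confidence interval -1.39 to 0.40).

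PLAUR, the urokinase receptor, gave 3 bright probe sets whose groups all overlapped. The brightest read 9.49 and 10.47 on the sh-ACTL6A arrays, against 10.17 and 10.01 on the scramble arrays. The sh-ACTL6A arrays lay on opposite sides of the scramble pair, 0.97 apart. The difference was -0.11 ± 0.29 (SE, 95% confidence interval -0.79 to 0.57). The value turned to 0.38 without sh-ACTL6A replicate 1 and was -0.60 without replicate 2.

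The other PLAUR probe sets did not settle a direction either. The dimmest read 8.08 and 8.88 on the sh-ACTL6A arrays, against 8.89 and 8.66 on the scramble arrays, a difference of -0.30 ± 0.28 (SE). The one between them in signal read 8.59 and 9.10 on the sh-ACTL6A arrays, against 8.58 and 8.99 on the scramble arrays, a difference of 0.06 ± 0.24 (SE). In all 3 probe sets sh-ACTL6A replicate 1 was the lower of its group, as it was in both PLAU probe sets.

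SERPINE2, or protease nexin-1, inhibits thrombin and the plasminogen activators. Neither of its probe sets reached the signal threshold. The brighter of them read 4.83 and 5.37 on the sh-ACTL6A arrays, against 5.01 and 5.46 on the scramble arrays, and the groups overlapped, with a difference of -0.14 ± 0.55 (SE). The dimmer one read 0.24 and 2.65 on the sh-ACTL6A arrays, against 3.37 and 3.05 on the scramble arrays. Its groups did not overlap, but the sh-ACTL6A arrays were 2.42 apart and the confidence interval of the difference of -1.77 ran from -4.36 to 0.82.

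SERPINB5, or maspin, is a clade B serpin of epithelial cells that does not trap proteases in the usual serpin manner. Its bright probe set read 10.03 and 10.29 on the sh-ACTL6A arrays, against 10.05 and 10.17 on the scramble arrays. These readings overlapped and had the narrowest interval of the 14 probe sets, with a difference of 0.06 ± 0.15 (SE) and bounds of -0.30 and 0.41 in the fit over probe sets. The dim one read 1.66 and 4.39 on the sh-ACTL6A arrays, against 3.50 and 3.03 on the scramble arrays. Here the sh-ACTL6A arrays enclosed the scramble pair, and the difference of -0.24 ± 1.11 (SE) had the other sign.

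MMP9, or gelatinase B, degrades denatured collagen and basement membrane collagen and is made as an inactive precursor. It read 7.37 and 7.33 on the sh-ACTL6A arrays, against 7.29 and 7.75 on the scramble arrays. The sh-ACTL6A arrays were 0.04 apart and both lay inside the scramble range. The difference was -0.17 ± 0.26 (SE, 95% confidence interval -0.76 to 0.42), and it was 0.059 without scramble replicate 2.

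ST14 encodes matriptase, a membrane serine protease of epithelia that can activate pro-urokinase and the precursor of hepatocyte growth factor. Its brightest probe set read 8.95 and 9.63 on the sh-ACTL6A arrays, against 8.95 and 9.39 on the scramble arrays. The second read 7.90 and 8.96 on the sh-ACTL6A arrays, against 7.64 and 8.70 on the scramble arrays. In both probe sets the replicates of a group were further apart than the groups, and the differences were 0.12 ± 0.26 (SE) in the fit over genes and 0.26 ± 0.45 (SE) in the fit over probe sets.

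The remaining ST14 probe set went the other way near the floor of the scale. It read 2.19 and 1.51 on the sh-ACTL6A arrays, against 4.50 and 2.90 on the scramble arrays, without overlap. The difference was -1.85 ± 0.96 (SE, 95% confidence interval -4.14 to 0.45), and averaging it with the 2 bright ones turned the ST14 value to -0.49.

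**Figure D2:**
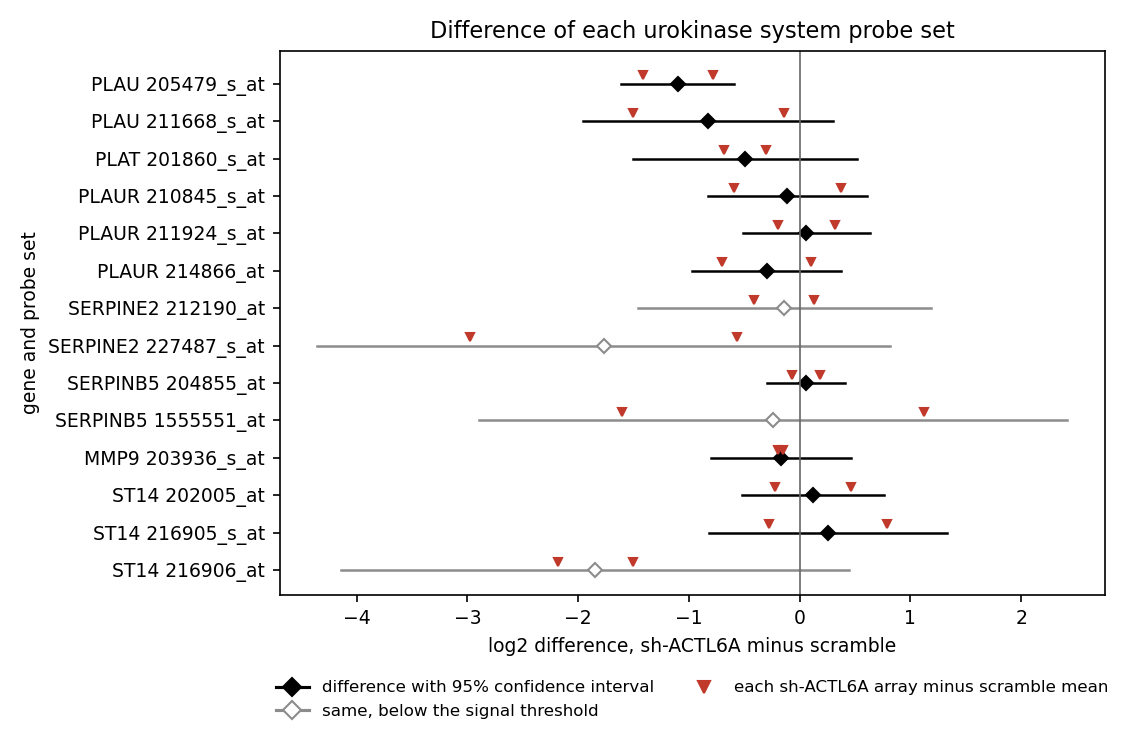
Log2 difference, sh-ACTL6A minus scramble (horizontal axis), of each of the 14 probe sets (vertical axis), with lines for 95% confidence intervals from the fit over all probe sets, grey open symbols for probe sets below the signal threshold and triangles for single sh-ACTL6A arrays set against the mean of the scramble pair. The interval of the brighter PLAU probe set runs from -1.61 to -0.59, and the 4 probe sets below the threshold have the widest intervals.

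Over the 14 probe sets, 10 differences were below 0 and 4 above. The 4 probe sets under the signal threshold all lay below 0, and the 4 above 0 were all bright. Over all genes tested, 5913 of 12286 lay below 0. That share is of genes above the signal threshold, and the share of all probe sets below 0 was not counted. Groups did not overlap in 4 of the 14 probe sets, all with sh-ACTL6A lower. This stands beside 33.8% of all probe sets in either direction and 17.1% with sh-ACTL6A lower. Of these 4, the brighter PLAU probe set and that of PLAT, 2 in all, were above the signal threshold. A difference of -1 or lower was met by 3 of the 14, the brighter of PLAU and the dimmest of SERPINE2 and ST14, beside 9.6% of all probe sets. Among the 6 tested genes, PLAU and PLAT were without overlap and lower in sh-ACTL6A, beside 34.6% of all genes in either direction and 15.4% with sh-ACTL6A lower, and the median difference was -0.14, against 0.01 over all genes tested. The probe sets of 1 gene share their transcript and are not separate observations.

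Replicate 2 read higher than replicate 1 in both groups for 7 of the 14 probe sets, among them both of PLAU and the bright ones of ST14, beside 27.7% of all probe sets. The ACTB difference between the ends followed the same split of the arrays, and its part in these values was not tested.

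**Figure D3:**
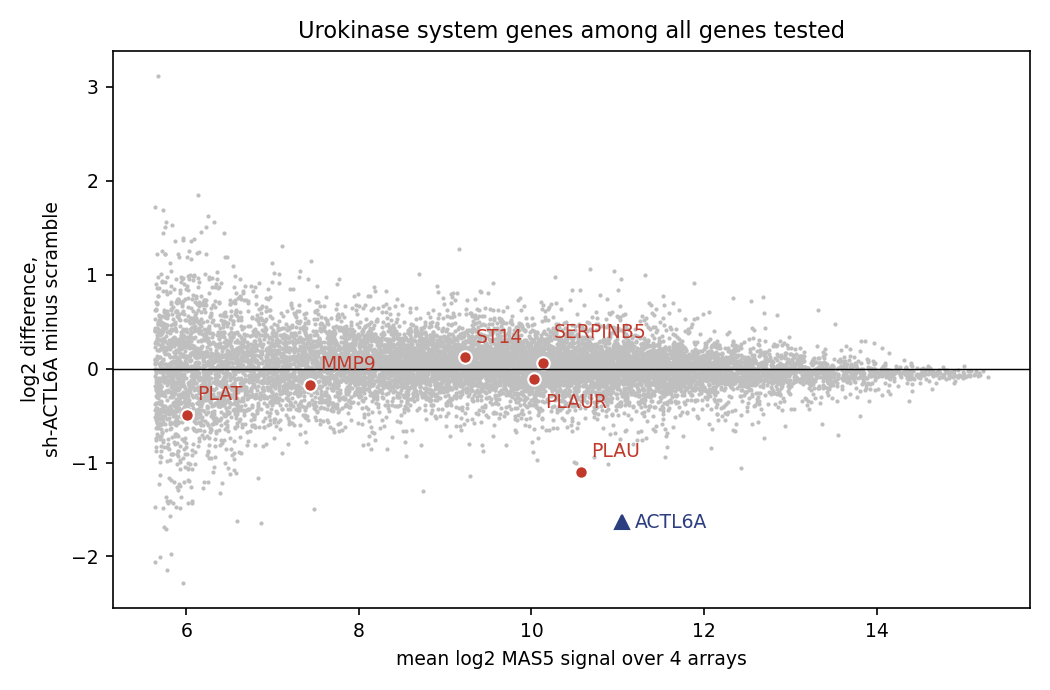
Log2 difference, sh-ACTL6A minus scramble (vertical axis), against mean log2 MAS5 signal over the 4 arrays (horizontal axis) for 12286 tested genes in grey, with circles for the 6 tested genes of the system and a triangle for ACTL6A. PLAU lies at -1.10 and ACTL6A at -1.63, while PLAUR, SERPINB5, MMP9 and ST14 lie between -0.17 and 0.12.

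The genes whose 4 array values were most like those of PLAU were taken from all tested genes by the root mean square distance between values centred on each gene's mean. The nearest were SELP, the platelet and endothelial adhesion receptor P-selectin (0.088 on the log2 scale), KMT5C, a histone H4 methyltransferase (0.125), NLRP12, a regulator of inflammatory signalling (0.125), ZNF575, a zinc finger gene (0.126), and MIR4435-2HG, a long non-coding RNA gene (0.127). All 5 were much nearer to the signal threshold than PLAU, with mean log2 signals from 6.10 to 6.63. On sh-ACTL6A replicate 1, SELP, NLRP12 (5.27) and MIR4435-2HG (5.47) read under the threshold of 5.63. KMT5C (5.88) and ZNF575 (5.83) read above it on that array. SELP read 5.33 and 6.20 on the sh-ACTL6A arrays, against 6.84 and 6.89 on the scramble arrays. The tested genes of the system lay further off, from 0.517 for PLAT to 0.621 for ST14, where the median over all genes was 0.622. This likeness rests on 4 arrays. The distance contains the sh-ACTL6A minus scramble difference itself, which was known when the genes were selected. It is therefore a description and no separate evidence about them.

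Around these 9 genes, 46 further genes of the pathway were listed by role, of which 43 had a named probe set and 30 were tested. None passed the adjusted threshold by limma in either direction. Of the 30, 9 lay above 0 and 21 below, beside 6373 above and 5913 below of all 12286 genes. The median difference was -0.11, against 0.01 over all genes tested. At an unadjusted p under 0.05, limma marked 1 higher and 2 lower of the 30, beside 394 higher and 282 lower of all 12286 genes, or 5.5%. These were TIMP2, a metalloproteinase inhibitor (0.30 ± 0.13), ITGAV, the vitronectin receptor chain (-0.40 ± 0.14), and MMP7, or matrilysin (-0.50 ± 0.20, SE each), and they are named because of these values. Groups did not overlap for 9 of the 30, beside 34.6% of all genes.

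Plasminogen itself was below the signal threshold, with PLG at 4.27 and 3.83 on the sh-ACTL6A arrays, against 5.67 and 2.58 on the scramble arrays. Its surface receptors were bright. PLGRKT, a membrane receptor for plasminogen, differed by 0.01 ± 0.14 (SE), ANXA2 by -0.09 ± 0.08 (SE) and its partner S100A10, which binds plasminogen in the annexin complex, by 0.09 ± 0.25 (SE). All 5 tested genes of this list, among them KRT8 (also counted as an epithelial marker), had overlapping groups, and their median was -0.04.

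Partners and clearance receptors of PLAUR were 8 tested genes with a median of -0.23, 2 above 0 and 6 below, beside 5913 of 12286 genes below 0. LRP1, which takes up urokinase bound to inhibitor, read 7.87 and 8.04 on the sh-ACTL6A arrays, against 7.46 and 7.56 on the scramble arrays. Its groups were apart by 0.32, with a difference of 0.45 ± 0.22 (SE, 95% confidence interval -0.05 to 0.95). These values are from the brightest of 4 LRP1 probe sets alone. ITGB1, an integrin chain that associates with the receptor, differed by 0.04 ± 0.09 (SE).

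Of 5 inhibitors of activators and of plasmin, 4 had a named probe set and 2 were tested, namely A2M at -0.56 ± 0.39 (SE) and SERPINI1, or neuroserpin, at -0.0003 ± 0.16 (SE). The further clade B serpins had 3 of 6 genes tested and all 3 below 0, beside 5913 of 12286 genes, with a median of -0.29. For matriptase, its inhibitors SPINT1 and SPINT2 differed by -0.15 ± 0.16 (SE) and 0.003 ± 0.12 (SE), and PRSS8, the prostasin protease with which it acts, by -0.30 ± 0.30 (SE). Among metalloproteinases and their inhibitors, 6 of 11 were tested with a median of -0.07. MMP14, a membrane collagenase, differed by 0.23 ± 0.25 (SE) and TIMP1 by -0.13 ± 0.13 (SE).

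**Figure D4:**
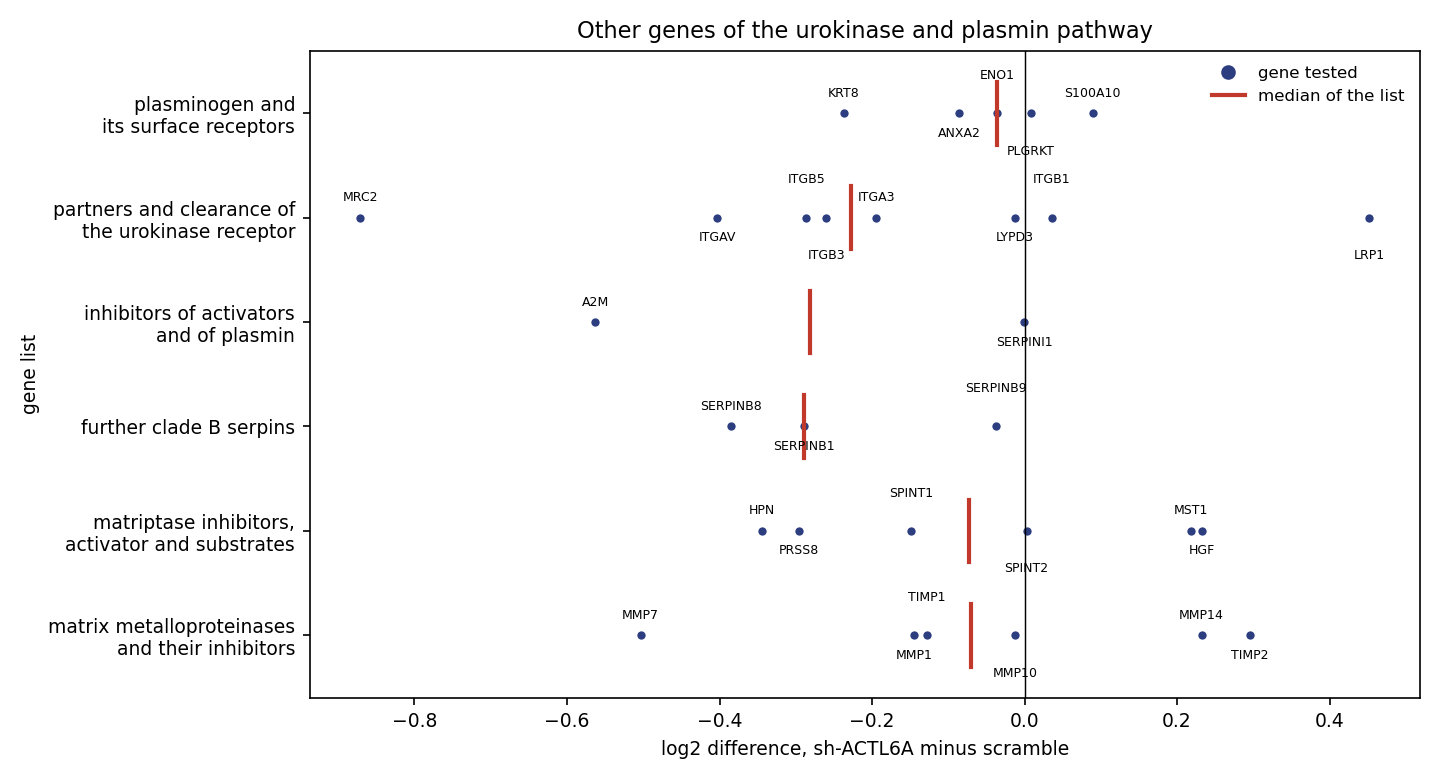
Log2 difference, sh-ACTL6A minus scramble (horizontal axis), of the 30 tested genes in 6 lists of the pathway (vertical axis), with 1 point per gene and a red bar for the median of each list. List medians lie between -0.29 and -0.04, and the genes span -0.87 for MRC2 to 0.45 for LRP1. The MRC2 groups overlap, with 6.74 and 4.53 on the sh-ACTL6A arrays against 6.64 and 6.37 on the scramble arrays (SE of the difference 0.67).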

How the data were processed

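Biotin-labelled cRNA was hybridised to 1 array per sample. The authors deposited log2 signals, for which the submitters' processing notes name MAS5 with no version; it summarises each array alone, and the linear mean trimmed by 2% at each end is 500.0 on every array. Values were used as deposited, so a global scaling and noisy dim signals remain.

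A gene was represented by its brightest probe set, and other probe sets of the listed genes are not shown. Differences were fitted with limma 3.58.1 in R 4.3.3 (intensity trend, 2-sided, Benjamini-Hochberg adjustment over all genes or all probe sets), without a replicate block. Symbols came from the platform's annotation, where 41091 probe sets had 1 symbol, 1801 several and 11721 none. The genes and lists were chosen with earlier results of these data known. Named genes were the 9 genes, ACTL6A, the 5 nearest to PLAU, and listed genes picked by role. PLG, A2M, SERPINI1, MRC2, KRT8, KRT18, TIMP2, ITGAV, MMP7 and CLDN4 were named after their values were seen. The fit was tested on simulated data from the 12286 genes in 20 runs of 200 changed genes. These were split over log2 changes of 0.5, 1, 1.5 and 2, of which 3.1%, 39%, 72% and 84.4% were recovered. Recovery depends on how many genes change. The fit of the real arrays called 1 gene, so these shares may be too high for these data. The number of arrays limits the precision. Alternatives were quantile normalisation, median centring, other filters, averaged probe sets, an offset, no trend, the block, each array left out, and the methods' t-test (unpaired).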

Additional observations from a re-analysis of the deposited data

How the results depend on the processing

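The PLAU difference was -1.12 after quantile normalisation, -1.07 after median centring, -1.10 with an offset and -0.96 as the mean of its probe sets. With each array left out in turn it ran from -1.41 to -0.79 and that of PLAT from -0.74 to -0.25, where groups that do not overlap fix the sign. Of 54 values of the other 6 genes, 10 turned sign. With each array left out in turn, values ran from -0.60 to 0.38 for PLAUR, -0.41 to 0.13 for SERPINE2, -0.071 to 0.19 for SERPINB5, -0.40 to 0.059 for MMP9 and -0.22 to 0.47 for ST14. Averaging all probe sets, dim ones included, turned SERPINB5 to -0.090 and ST14 to -0.49 and moved SERPINE2 to -0.95. The count of called genes was 0 after quantile normalisation, without the dim filter, without the trend and by the methods' t-test after adjustment (672 of 12286 genes before it), 2 with the replicate block, and 0 to 401 with an array left out. The count of called genes of the system was 0 in these settings except with an array left out, where it was 0 to 1, the call being PLAU without either sh-ACTL6A array. With the replicate block, 3 probe sets of all 54613 were called and no gene of the system was called, while the differences are the same by construction. The replicate numbers were not taken to pair the arrays, since r between the groups' replicate deviations across genes was 0.056 and there are 2 numbers. Low signal limits both SERPINE2 probe sets and the dim ones of ST14 and SERPINB5, whose confidence intervals were all wider than those of the other 10.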
